A study of Mus musculus with 18 samples.

Results

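The genes described here are 48 mouse genes of autophagy and the lysosome, taken from a fixed list of symbols: the MiT/TFE transcription factors and their regulators, the core autophagy genes, autophagy receptors and lysosomal enzymes. All 48 were found by Ensembl identifier among the 47643 genes of the deposited count table, and 47 were among the 14309 genes with enough counts to test. Ctsk was left out by that filter and is described by its level only. The rule that lists them uses no measured value.

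RNA was measured in MPC3, a mouse prostate cancer cell line, with 3 groups of 6 libraries. The control group is marked plko in the sample titles and Control under treatment. The other groups carry a short hairpin RNA against Rnf185, which encodes a ubiquitin ligase of the endoplasmic reticulum, and are labelled shRNF185.1 and shRNF185.3. A short hairpin RNA lowers the messenger RNA it matches and does not remove the gene. The labels number the libraries of each group 1 to 6 and place numbers 1 and 2 in batch 1, 3 and 4 in batch 2, and 5 and 6 in batch 3. Nothing in the labels says that libraries of a group came from separate cultures, so the p-values measure the spread between these libraries, which may be technical. The counts were adjusted for batch before deposit and the main test holds no batch term. The spread is therefore what that adjustment left. All groups share 1 cell line, and both hairpins are compared with the same 6 control libraries.

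Autophagy encloses parts of the cytoplasm in a double membrane, the autophagosome, which fuses with the lysosome, where acid hydrolases break the contents down. It starts with a kinase complex and a lipid kinase complex, grows a membrane to which proteins of the ATG8 family are attached by a ubiquitin-like conjugation system, and picks cargo through receptors that bind ATG8 proteins. The MiT/TFE factors are transcription factors that bind the CLEAR element of many lysosomal promoters, and they are held in the cytoplasm by phosphorylation when nutrients are plentiful.

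Totals ranged from 22027395 to 43379662 counts per library, so that 3 counts correspond to between 0.0692 and 0.136 CPM (the deposited counts scaled to each library's effective size). In the control group Rnf185 had a median of 36.2 CPM (33.6 to 38.4). The medians were 5.63 CPM (5.21 to 6.80) with shRNF185.1 and 5.73 CPM (5.19 to 6.72) with shRNF185.3, a fall of 83.8% with each hairpin, and every hairpin library lay below every control library. The epithelial keratin genes Krt8 and Krt18 and the prostate gene Hoxb13 were present, while Pbsn, a secretory gene of the prostate, was at 0 counts in each library and Epcam reached at most 7 counts. Summed CPM of 5 epithelial markers ran from 1431 to 1749 in the control group, 880 to 1159 with shRNF185.1 and 953 to 1024 with shRNF185.3. For 5 fibroblast markers the sums were 254.5 to 286.8, 285.1 to 306.8 and 353.4 to 403 CPM in the same order. The fibroblast markers differed among themselves: medians of Pdgfrb were 152.7, 202.6 and 238.9 CPM, of Pdgfra 92.9, 90.4 and 123.4 CPM, and of Dcn 26.6, 4.89 and 17.2 CPM. Macrophage markers, whose cells are rich in lysosomes, gave 40.9 to 60.0, 44.6 to 71.3 and 52.0 to 65.4 CPM over 8 genes. Of these, 2 had a median of at least 1 CPM in each group, and Ptprc did not exceed 3 counts in any library. Those 2 were Cd14 (medians 45.75, 56.52 and 50.89 CPM in the same order) and Cd68 (3.52, 2.304 and 2.498 CPM). The macrophage sums are therefore mostly Cd14, while the Cd68 median was lower with each hairpin than in the control group. The 5 osteoclast markers summed to at most 1.08 CPM in any library. Whether these differences in marker levels take part in the results below was not tested, and in bulk RNA fewer cells of a type and less RNA per cell cannot be told apart.

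For both hairpins (their mean) against control, 13 of the 47 tested genes passed the test, 8 higher and 5 lower. Those that rose were the cathepsin Ctsb, the ATG8 family gene Gabarapl1, the lipid handling genes Npc2 and Psap, the glycosidases Glb1 and Gaa, the phosphoinositide-binding effector Wipi1 and the kinase Ulk1. Those that fell were Atg12, Ulk2, Tfe3, Becn1 and Atg7, of which only Becn1 also passed with each hairpin taken singly. A gene passed at an adjusted p under 0.05 in edgeR's quasi-likelihood test, with Benjamini-Hochberg adjustment over all 14309 genes. The 13 are 27.7% of the tested members, while 32.9% of all genes tested passed in the same comparison (16.1% higher and 16.8% lower), so the share of members that passed was no larger than in the transcriptome as a whole.

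The median log2 fold change over the 47 genes was 0.04 (28 above 0 and 19 below), against -0.02 over all genes. Most of the differences were small: from -0.30 for Atg12 to 0.69 for Ctsb on the log2 scale. With an offset for GC content and gene length, 18 members passed, 8 higher and 10 lower (38.3%, beside 37.7% of all genes), and the share of all called genes that were higher moved from 48.9% to 37.9%. Without batch 2, 17 members passed, 13 higher and 4 lower (36.2%, beside 37.7% of all genes). The split between higher and lower members therefore depends on the scaling and on the batches included.

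**Figure D1:**
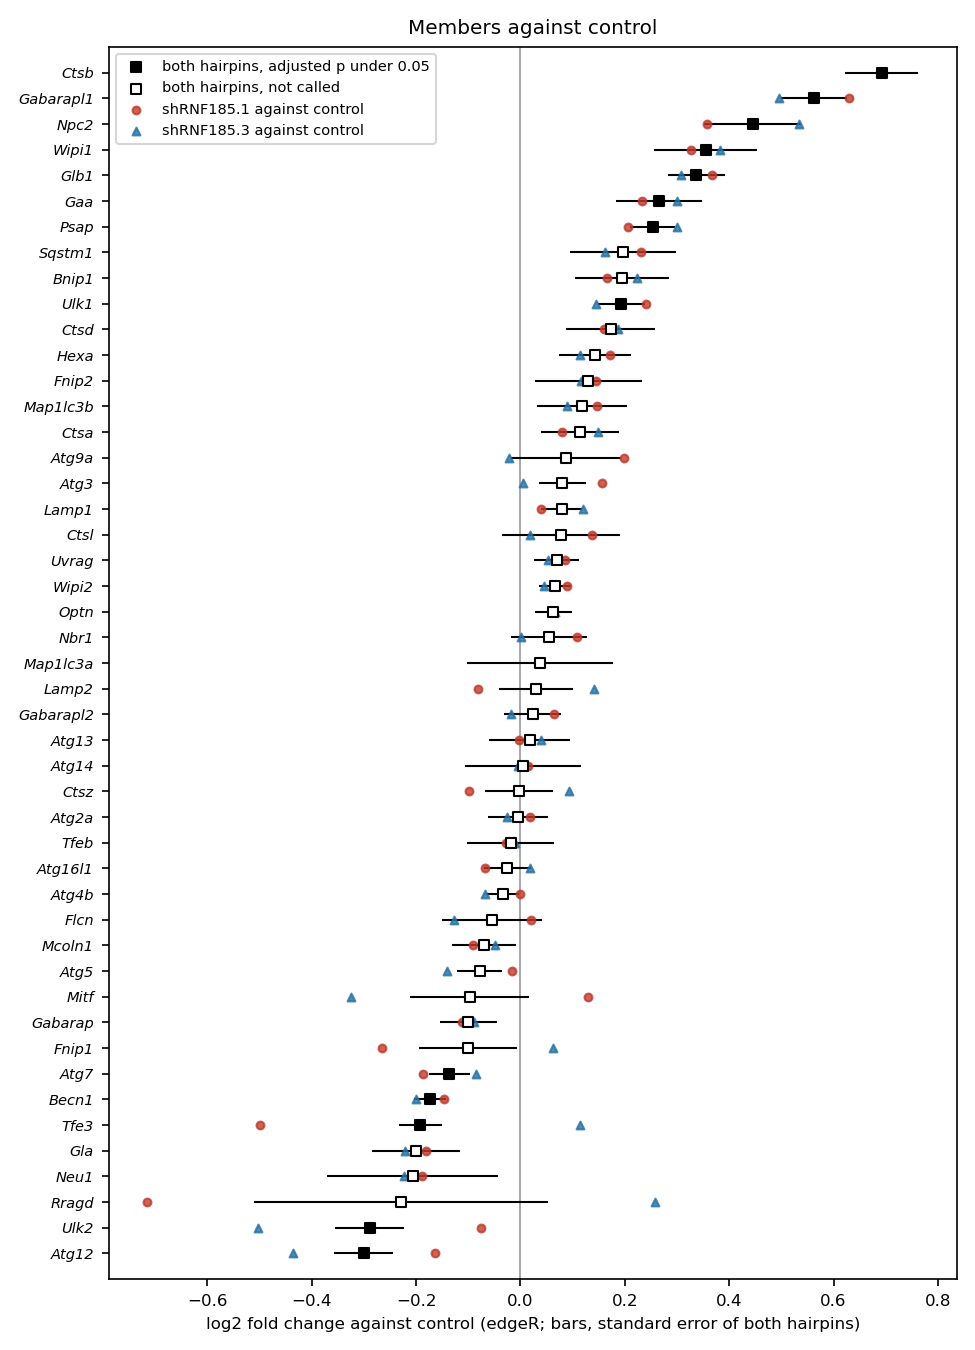
Log2 fold change against control (x axis) for each of the 47 tested genes (y axis), for shRNF185.1, shRNF185.3 and both hairpins together, where bars are the standard error of the value for both hairpins. Most points lie close to 0, Ctsb at 0.69 and Gabarapl1 at 0.56 stand farthest to the right for both hairpins, and the Tfe3 points of the hairpins lie apart at -0.50 and 0.11.

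The hairpins taken singly gave like counts, but not all from the same genes. Lower calls were Tfe3, Becn1 and Atg7 with shRNF185.1, and Ulk2, Becn1, Atg12 and Atg5 with shRNF185.3. Among the higher calls, Atg3 passed only with shRNF185.1 and Gaa only with shRNF185.3. For shRNF185.1, 11 members passed (8 higher, 3 lower; 23.4%), beside 28.9% of all genes (14.6% higher and 14.3% lower). With shRNF185.3 there were 12 (8 higher, 4 lower; 25.5%), beside 27.3% of all genes (14.2% higher and 13.1% lower). Under the GC and length offset the splits were 8 higher and 5 lower for shRNF185.1 (27.7%, beside 31.7% of all genes, 43.9% of those higher). For shRNF185.3 they were 7 higher and 8 lower (31.9%, beside 34.1% of all genes, 36.8% of those higher). Without batch 2, shRNF185.1 gave 14 higher and 2 lower (34%, beside 35.7% of all genes). Because the comparisons share their control libraries, values for each hairpin are given side by side and are not independent of each other.

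The transcription factor Tfe3 (ENSMUSG00000000134, chrX:7762560-7775202 on GRCm38, plus strand) set the hairpins apart. In the control group its lowest, median and highest values were 90.9, 94.8 and 101 CPM. With shRNF185.1 they were 61.9, 67.7 and 72.2 CPM, and with shRNF185.3 97.1, 103 and 110 CPM. Every shRNF185.1 library lay below all control libraries, and 4 of the 6 shRNF185.3 libraries lay above them. Tfe3 fell by 29.2% with shRNF185.1 (log2 fold change -0.50, SE 0.05, adjusted p = 4.36e-07, edgeR), and shRNF185.3 gave 0.11 (SE 0.05, adjusted p = 0.0858), which did not pass. The value for both hairpins together, -0.19 (adjusted p = 0.0016), is therefore the mean of unlike values.

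Tfeb (chr17:47737030-47792419, plus strand), the family member most studied as a regulator of lysosomal genes, gave 15.6, 20 and 22.98 CPM in the control group, 16.3, 19.3 and 22.3 CPM with shRNF185.1 and 17.3, 19.5 and 21.0 CPM with shRNF185.3. The groups overlapped throughout, and the log2 fold change for both hairpins was -0.02 (SE 0.08, adjusted p = 0.887). Within batches it was -0.09, -0.33 and 0.38.

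Mitf (chr6:97807052-98021349, plus strand), best known from pigment cells, was the least abundant of these factors. Its lowest, median and highest values were 2.86, 3.59 and 4.75 CPM in the control group, 3.34, 4.12 and 4.53 CPM with shRNF185.1, and 2.503, 2.82 and 3.78 CPM with shRNF185.3. Neither hairpin differed from control beyond the test (0.13, adjusted p = 0.491, and -0.32, adjusted p = 0.0787), though 3 shRNF185.3 libraries lay below every control library. Per kb of exonic length, the control means were 10.3 CPM for Tfe3, 3.44 for Tfeb and 0.596 for Mitf.

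The folliculin complex, made of Flcn with Fnip1 or Fnip2, acts on the Rag GTPases that bring MiT/TFE factors to the lysosome, and Rragd is one of those GTPases. None of these 4 genes passed the main test in any comparison. Their log2 fold changes for both hairpins ran from -0.23 for Rragd to 0.13 for Fnip2. Rragd was barely detected, at 0.124 to 0.598 CPM in the control group, where its SD on the log2 scale was the highest of the tested members (0.90). Between the hairpins Rragd was 0.97 (adjusted p = 0.0675; 0.71, 1.11 and 1.28 within batches), and it passed with summed libraries (adjusted p = 0.0149). Fnip1 gave -0.27 with shRNF185.1 (adjusted p = 0.0763) and 0.06 with shRNF185.3 (adjusted p = 0.709). Its difference between the hairpins, 0.33 (SE 0.11, adjusted p = 0.0502), lay at the threshold and passed in 9 of 14 alternatives. With summed libraries Fnip1 passed both with shRNF185.1 (-0.24, adjusted p = 0.0315) and between the hairpins (0.32, adjusted p = 0.0158).

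**Figure D2:**
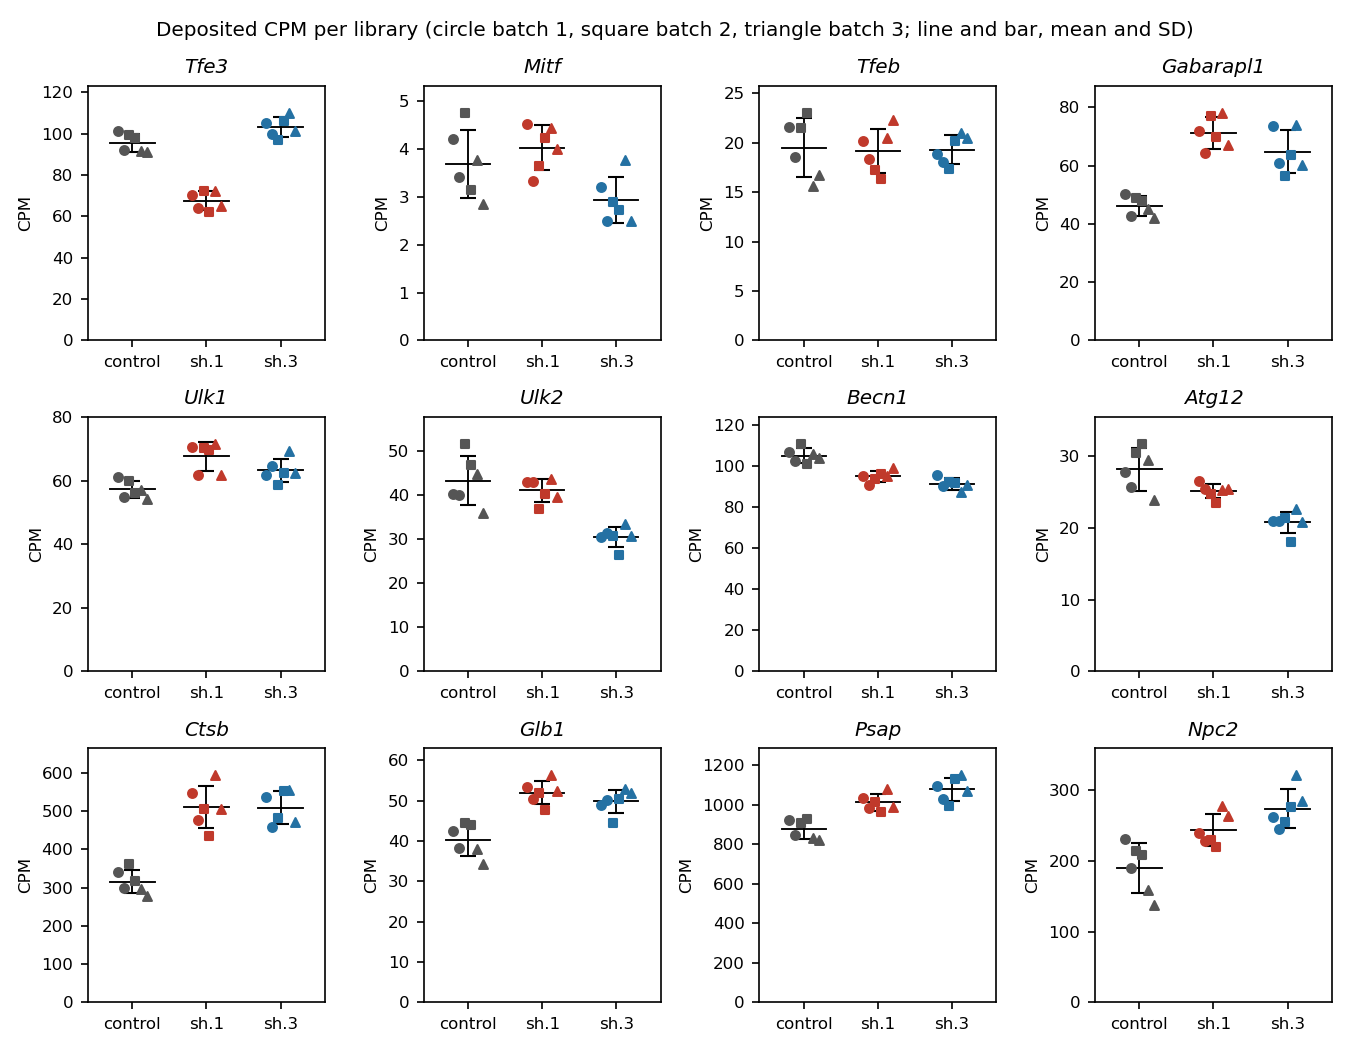
Deposited CPM of single libraries (y axis, from 0) in the control group and with shRNF185.1 (sh.1) and shRNF185.3 (sh.3), with the mean and SD of 6 libraries, and a symbol per batch. All shRNF185.1 values of Tfe3 lie at or under 72.2 CPM, below every control value, and all hairpin values of Ctsb lie at or above 435.9 CPM, above every control value.

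MiT/TFE factors bind E-box sequences with the core CACGTG, which the longer CLEAR element contains. Promoters of 300 bases (250 before to 50 after the start) from RefSeq were matched by symbol on GRCm38.p6: 43 of the 48 genes had at least 1, giving 51 promoters, and Map1lc3a, Becn1, Atg12, Atg16l1 and Ctsb had none in the table. On both strands, CACGTG was present in 14 of the 51 (27.5%) and in 7.15% of all 32851 promoters in the table. The longer TCACGTGA, which contains CACGTG, was in 5 (9.8%) and in 0.974% of all promoters, and these belong to Atg3, Mcoln1, Ctsa, Ctsd and Gla. TCACGTGA with a G before it and a C after it was in 0 of the 51 and in 0.326% of all. TCATGTGA, which has another core, was in 1 (1.96%) and in 0.986% of all. A match is a description of letters and not a binding site, and the members' role in the lysosome was a reason for their being listed.

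The following windows of up to 160 bases are the parts of these promoters that lie before the gene in GENCODE M21. They show 4 of the 5 members with TCACGTGA, Lamp1 with 4 cores, Gaa and Glb1, which rose and hold a single core, and Gabarapl1, which rose and holds none. They are written 5′ to 3′ in the direction of the gene, and capitals mark CACGTG or TCACGTGA. The TCACGTGA matches of Mcoln1, Ctsd and Ctsa lie inside the annotated gene and are not shown, so Mcoln1 and Ctsd show 1 CACGTG each and Ctsa has no window here. The windows lie at chr8:3500297-3500456, plus strand (Mcoln1), chr7:142388039-142388077, minus strand (Ctsd), chrX:134601126-134601255, minus strand (Gla), chr16:45158625-45158784, plus strand (Atg3), chr8:13159001-13159160, plus strand (Lamp1), chr11:119267727-119267886, plus strand (Gaa), chr9:114400916-114401075, plus strand (Glb1) and chr6:129533000-129533159, plus strand (Gabarapl1).
Mcoln1: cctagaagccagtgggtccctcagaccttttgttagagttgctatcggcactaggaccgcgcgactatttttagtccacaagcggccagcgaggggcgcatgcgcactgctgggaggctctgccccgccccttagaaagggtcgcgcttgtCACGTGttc
Ctsd: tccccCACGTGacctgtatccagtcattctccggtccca
Gla: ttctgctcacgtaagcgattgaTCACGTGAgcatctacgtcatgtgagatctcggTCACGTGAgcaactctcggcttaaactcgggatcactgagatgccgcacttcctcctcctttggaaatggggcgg
Atg3: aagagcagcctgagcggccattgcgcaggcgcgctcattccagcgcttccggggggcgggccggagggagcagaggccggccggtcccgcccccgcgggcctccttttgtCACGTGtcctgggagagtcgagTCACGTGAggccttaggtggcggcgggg
Lamp1: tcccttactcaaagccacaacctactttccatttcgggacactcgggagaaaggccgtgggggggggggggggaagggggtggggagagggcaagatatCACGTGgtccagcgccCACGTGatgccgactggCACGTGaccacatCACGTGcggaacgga
Gaa: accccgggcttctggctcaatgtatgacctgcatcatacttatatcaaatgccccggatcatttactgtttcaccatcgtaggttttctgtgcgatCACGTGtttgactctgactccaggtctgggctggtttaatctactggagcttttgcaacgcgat
Glb1: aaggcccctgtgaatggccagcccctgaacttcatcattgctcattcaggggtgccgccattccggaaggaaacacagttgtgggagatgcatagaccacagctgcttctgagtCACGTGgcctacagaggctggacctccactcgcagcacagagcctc
Gabarapl1: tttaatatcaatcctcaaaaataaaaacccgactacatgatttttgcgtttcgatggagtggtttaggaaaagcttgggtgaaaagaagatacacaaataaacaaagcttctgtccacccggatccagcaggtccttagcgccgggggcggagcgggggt

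The genes with these matches gave values of both signs. None of the 5 genes with TCACGTGA passed the main test for both hairpins, which 32.9% of all genes passed. Their log2 fold changes were 0.08 for Atg3, -0.07 for Mcoln1, 0.11 for Ctsa, 0.17 for Ctsd and -0.20 for Gla. Of 14 alternatives, Gla passed in 4, Mcoln1 in 2, Atg3 and Ctsd in 1 each and Ctsa in 0. Lamp1, with 4 cores in its window, gave 0.08. Of the other members with CACGTG in a promoter (Fnip1, Bnip1, Atg14, Atg5, Atg7, Ctsl, Gaa and Glb1), Gaa and Glb1 rose and Atg7 fell. Of the 8 genes that rose, Gabarapl1, Npc2, Wipi1, Psap and Ulk1 held no CACGTG in these windows of 300 bases, and Ctsb had no promoter in the table.

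Of the ATG8 family, whose proteins coat the growing membrane and bind cargo receptors, Gabarapl1 (ENSMUSG00000030161, chr6:129533160-129542346, plus strand) rose and the other 4 tested genes did not pass. Its lowest, median and highest values were 41.95, 46.4 and 50.1 CPM in the control group, 64.1, 70.8 and 77.9 CPM with shRNF185.1, and 56.5, 62.2 and 73.95 CPM with shRNF185.3. All 12 hairpin libraries lay above all 6 control libraries. The rise was 1.55-fold with shRNF185.1 and 1.41-fold with shRNF185.3 (both together 0.56 on the log2 scale, SE 0.06, adjusted p = 2.29e-06, edgeR). Within batches 1, 2 and 3 the log2 difference was 0.54, 0.46 and 0.68. Antisense to it, 1700101I11Rik overlaps 28.3% of its exonic bases and averaged 0.0675 CPM in the control group.

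For both hairpins the remaining family members gave 0.12 (Map1lc3b), 0.04 (Map1lc3a), 0.02 (Gabarapl2) and -0.10 (Gabarap). Map1lc3b and Gabarapl2 share 4.07% and 9.53% of their 75-base windows with other genes, which could split their counts. Map1lc3a had a wide spread, 15.9 to 28.0 CPM in the control group, and its shRNF185.1 difference was 0.29, -0.74 and 0.56 in the 3 batches.

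None of the receptor genes passed the main test: Sqstm1, which encodes p62, gave 0.20 for both hairpins (adjusted p = 0.151), Nbr1 0.05 and Optn 0.06. Bnip1, an endoplasmic reticulum SNARE grouped with them here, gave 0.19 (adjusted p = 0.108). For both hairpins Sqstm1 passed with the replicate number as a block (0.20, adjusted p = 0.039). Nbr1 and Bnip1 passed in 1 of 14 alternatives each, without batch 2 (0.20, adjusted p = 0.0146, and 0.33, adjusted p = 0.0204). Sqstm1 was the most abundant of the 4, at 288 to 409 CPM in the control group and 334 to 493 CPM with shRNF185.1, so the ranges overlapped.

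In the initiation kinase complex the paralogous kinases Ulk1 and Ulk2 had opposite signs for both hairpins together, though Ulk2 passed with shRNF185.3 alone. Ulk1 gave 54.3, 56.6 and 61.2 CPM in the control group, 61.7, 70.0 and 71.4 CPM with shRNF185.1 and 58.6, 62.3 and 69.4 CPM with shRNF185.3. All shRNF185.1 libraries and 5 of 6 shRNF185.3 libraries lay above the control range. Ulk1 rose by 0.19 on the log2 scale for both hairpins (SE 0.05, adjusted p = 0.00282), and with the GC and length offset the value was 0.10 and did not pass (adjusted p = 0.0848). With shRNF185.3 singly Ulk1 gave 0.15 (adjusted p = 0.0432). That call was lost without the filter, with a batch covariate, with the GC and length offset, and with any batch left out.

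Ulk2 (chr11:61775649-61855073, minus strand) gave 35.96, 42.5 and 51.4 CPM in the control group and 36.8, 41.5 and 43.6 CPM with shRNF185.1. With shRNF185.3 it gave 26.3, 30.6 and 33.4 CPM, and every one of those libraries lay below every library of the other groups. It fell by 29.4% with shRNF185.3 (log2 fold change -0.50, SE 0.08, adjusted p = 7.58e-05), against -0.08 with shRNF185.1 (adjusted p = 0.491). The value for both hairpins, -0.29, was largest in batch 2 (-0.57, beside -0.14 in each other batch), and without batch 2 it was -0.14 with an adjusted p of 0.0639. Atg13, the scaffold of the complex, gave 0.02.

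Becn1, the regulatory subunit of the lipid kinase complex that marks the site of autophagosome formation, fell slightly and evenly. Its lowest, median and highest values were 100.6, 104.6 and 110.4 CPM in the control group, 90.7, 95.0 and 99.01 CPM with shRNF185.1, and 87.0, 91.0 and 95.6 CPM with shRNF185.3. None of the 12 hairpin libraries reached the control range. The log2 fold change was -0.17 for both hairpins (SE 0.03, adjusted p = 0.000211), and -0.17, -0.18 and -0.17 within batches. Cntd1 lies antisense to 43.9% of its exonic bases at a control mean of 0.442 CPM. Atg14 and Uvrag, which define alternative forms of the complex, gave 0.01 and 0.07 and did not pass.

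Among the genes that supply membrane and bind its lipids, Wipi1 rose (0.35 for both hairpins, SE 0.10, adjusted p = 0.00955) and Wipi2 (0.07), Atg9a (0.09) and Atg2a (-0.00) did not pass. Wipi1 was 34.98 to 54.8 CPM in the control group, 46.3 to 63.9 CPM with shRNF185.1 and 51.4 to 69.2 CPM with shRNF185.3. Only 3 shRNF185.1 and 4 shRNF185.3 libraries lay above every control library. Its differences within batches were 0.37, -0.04 and 0.75, and without batch 2 the value was 0.56. The call was lost without batch 1 (0.34, adjusted p = 0.0821), without batch 3 (0.17, adjusted p = 0.257) and after summing libraries that share a group and a batch (0.36, adjusted p = 0.0941). Atg9a shares 28.8% of its windows with other genes, so its counts are uncertain.

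The conjugation system joins Atg12 to Atg5 through the activating enzyme Atg7, and lipid to ATG8 proteins through Atg7 and Atg3, after Atg4b has trimmed them. Atg12 gave 23.9, 28.6 and 31.6 CPM in the control group, 23.4, 25.3 and 26.5 CPM with shRNF185.1, and 18.1, 20.9 and 22.6 CPM with shRNF185.3. All shRNF185.3 libraries lay below all libraries of the other groups, while the shRNF185.1 range overlapped that of the control group. Atg12 fell by 26.1% with shRNF185.3 (-0.44, SE 0.07, adjusted p = 7.38e-05), and shRNF185.1 gave -0.16 (adjusted p = 0.0699). For both hairpins it was -0.30, and -0.20, -0.51 and -0.18 within batches. Without batch 2 the value was -0.19, which still passed (adjusted p = 0.0183).

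Atg7 fell with shRNF185.1 (-0.19, adjusted p = 0.00362), where all 6 libraries lay below the control range, and gave -0.08 with shRNF185.3 (adjusted p = 0.171). Its value for both hairpins was -0.14 (adjusted p = 0.0107), a call lost in 4 of 14 alternatives: without batch 1 (-0.11, adjusted p = 0.176), without batch 2 (-0.12, adjusted p = 0.0856), scaling by library size alone and summed libraries. Atg3 rose with shRNF185.1 (0.16, adjusted p = 0.0277), a call lost in 6 of 14 alternatives, with 0.06 without batch 2. Atg5 fell with shRNF185.3 (-0.14, adjusted p = 0.0451), a call lost in 9 of 14. Atg4b and Atg16l1 gave -0.03 and -0.02 for both hairpins.

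**Figure D3:**
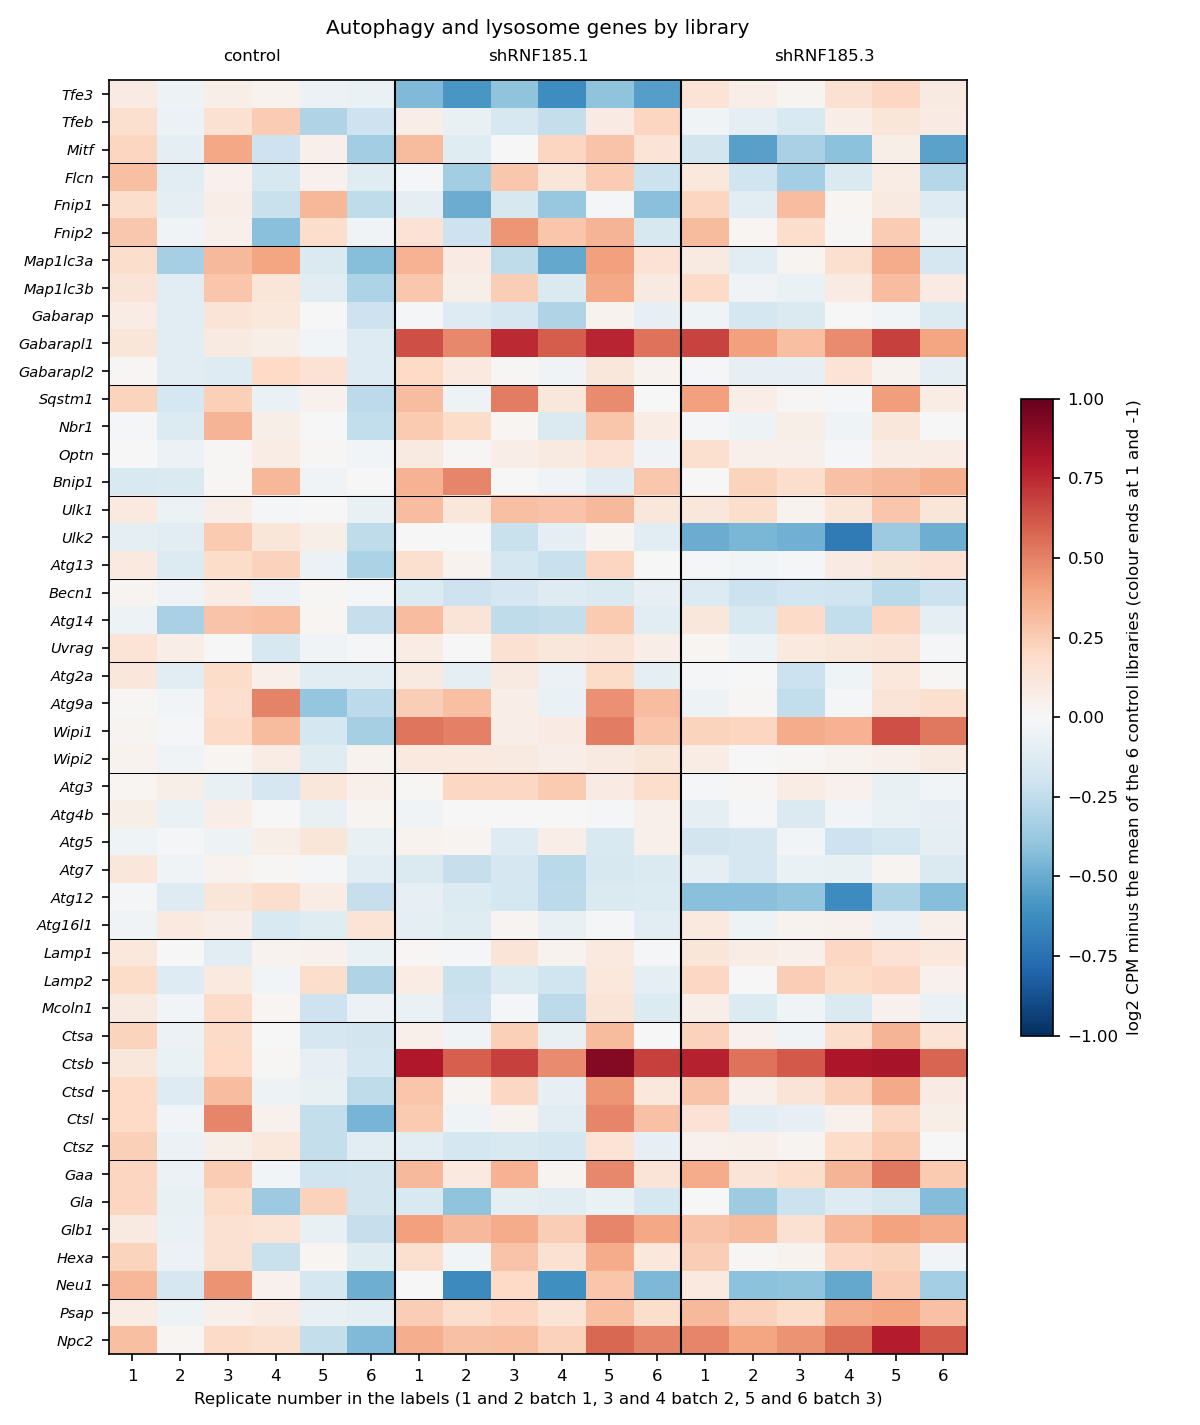
Log2 CPM of each tested gene except Rragd (rows, by role) in each of the 18 libraries (columns, by group and replicate number). Values are relative to the gene's mean in the control group. Ctsb, Gabarapl1, Glb1 and Psap are above the control mean in all 12 hairpin libraries, and several other rows vary between libraries inside a group.

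The lysosomal membrane genes did not pass the main test for either hairpin. Lamp1 and Lamp2 encode the main glycoproteins of the lysosomal membrane and Mcoln1 its calcium channel, and their log2 fold changes for both hairpins were 0.08, 0.03 and -0.07. Lamp1 with shRNF185.3 came nearest the threshold (0.12, adjusted p = 0.0552) and passed in 4 of 14 alternatives. Mcoln1 with shRNF185.1 passed in 2 of 14, and Lamp2 between the hairpins (0.22, adjusted p = 0.0748) in 3 of 14.

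Of the cathepsins, lysosomal proteases, Ctsb (ENSMUSG00000021939, chr14:63122462-63145923, plus strand) showed the largest rise of all the members. Its lowest, median and highest values were 278.5, 308.7 and 361.6 CPM in the control group, 435.9, 505.5 and 594.0 CPM with shRNF185.1, and 459.6, 509.0 and 556.6 CPM with shRNF185.3. The hairpin groups covered the same range and neither overlapped the control group. Ctsb rose 1.62-fold with each hairpin (both together 0.69 on the log2 scale, SE 0.07, adjusted p = 6.08e-07, edgeR), and the log2 difference between the hairpins was -4e-04 (SE 0.08). Within batches the value for both hairpins was 0.66, 0.54 and 0.88. Fdft1 overlaps 12.8% of its exonic bases on the other strand, at a control mean of 89.4 CPM, and gave 0.12 (adjusted p = 0.345).

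The remaining tested cathepsins did not pass: Ctsd 0.17 (adjusted p = 0.131), Ctsa 0.11, Ctsl 0.08 and Ctsz -0.00 for both hairpins. Ctsd shares 31.3% of its windows with Gm49369, so its counts are uncertain. Ctsl was spread from 443.2 to 858.4 CPM in the control group, and its difference for both hairpins was -0.02, -0.29 and 0.62 in the 3 batches. Ctsk, the cathepsin of bone-resorbing osteoclasts, was at 0.0348 to 0.372 CPM in the control group and at most 0.381 CPM in any hairpin library, near the value of 3 counts. Of its shRNF185.3 libraries, 4 lay below every shRNF185.1 library. Without the filter its log2 difference between the hairpins was -1.04 (adjusted p = 0.176), and with summed libraries -1.05 (adjusted p = 0.0562).

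Among the glycosidases, which strip sugars from lipids, glycogen and glycoproteins, Glb1 (beta-galactosidase) and Gaa (acid alpha-glucosidase) rose. Glb1 was 34.3, 40.4 and 44.49 CPM in the control group, 47.6, 52.2 and 56.3 CPM with shRNF185.1, and 44.51, 50.3 and 52.97 CPM with shRNF185.3, with all 12 hairpin libraries above all control libraries. Its log2 fold change was 0.34 for both hairpins (SE 0.06, adjusted p = 0.000122), and 0.33, 0.13 and 0.56 within batches. Gaa was 0.27 (SE 0.08, adjusted p = 0.0182), and its groups overlapped: 91.7 to 125.5 CPM in the control group, 107.5 to 147.3 CPM with shRNF185.1 and 115.4 to 151.8 CPM with shRNF185.3. The Gaa call for both hairpins was lost without batch 1 (0.32, adjusted p = 0.0547) and without batch 3 (0.13, adjusted p = 0.304). Singly, Gaa passed with shRNF185.3 (0.30, adjusted p = 0.0236). With shRNF185.1 it did not (0.23, adjusted p = 0.0723), and passed there in 2 of 14 alternatives. Hexa gave 0.14, and Gla and Neu1 gave -0.20 and -0.21, none of which passed.

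Both lipid handling genes rose. Psap encodes the precursor of the saposins, which present sphingolipids to their hydrolases, and Npc2 a protein that hands cholesterol to the lysosomal membrane. Psap was 822, 876 and 926 CPM in the control group, 963, 1001 and 1078 CPM with shRNF185.1, and 991, 1081 and 1148 CPM with shRNF185.3, with no overlap between hairpin and control libraries. Its log2 fold change for both hairpins was 0.25 (SE 0.04, adjusted p = 0.000149). Psap with shRNF185.1 alone (0.21, adjusted p = 0.00329) was lost without batch 1 (0.21, adjusted p = 0.0591) and without batch 3 (0.15, adjusted p = 0.0857).

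Npc2 (chr12:84754562-84773152, minus strand) was 137.5, 199.6 and 230.9 CPM in the control group, 219.7, 235.3 and 277.8 CPM with shRNF185.1, and 245.7, 269 and 321.5 CPM with shRNF185.3. All shRNF185.3 libraries and 3 of the shRNF185.1 libraries lay above the control range. The log2 fold change was 0.45 for both hairpins (SE 0.09, adjusted p = 0.00114), 0.36 with shRNF185.1 and 0.53 with shRNF185.3. Batch 3 carried much of it: the differences within batches were 0.22, 0.21 and 0.96, and without batch 3 the value was 0.21 (adjusted p = 0.014). For the hairpins singly the values without batch 3 were 0.12 for shRNF185.1, which did not pass (adjusted p = 0.196), and 0.30 for shRNF185.3.

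**Figure D4:**
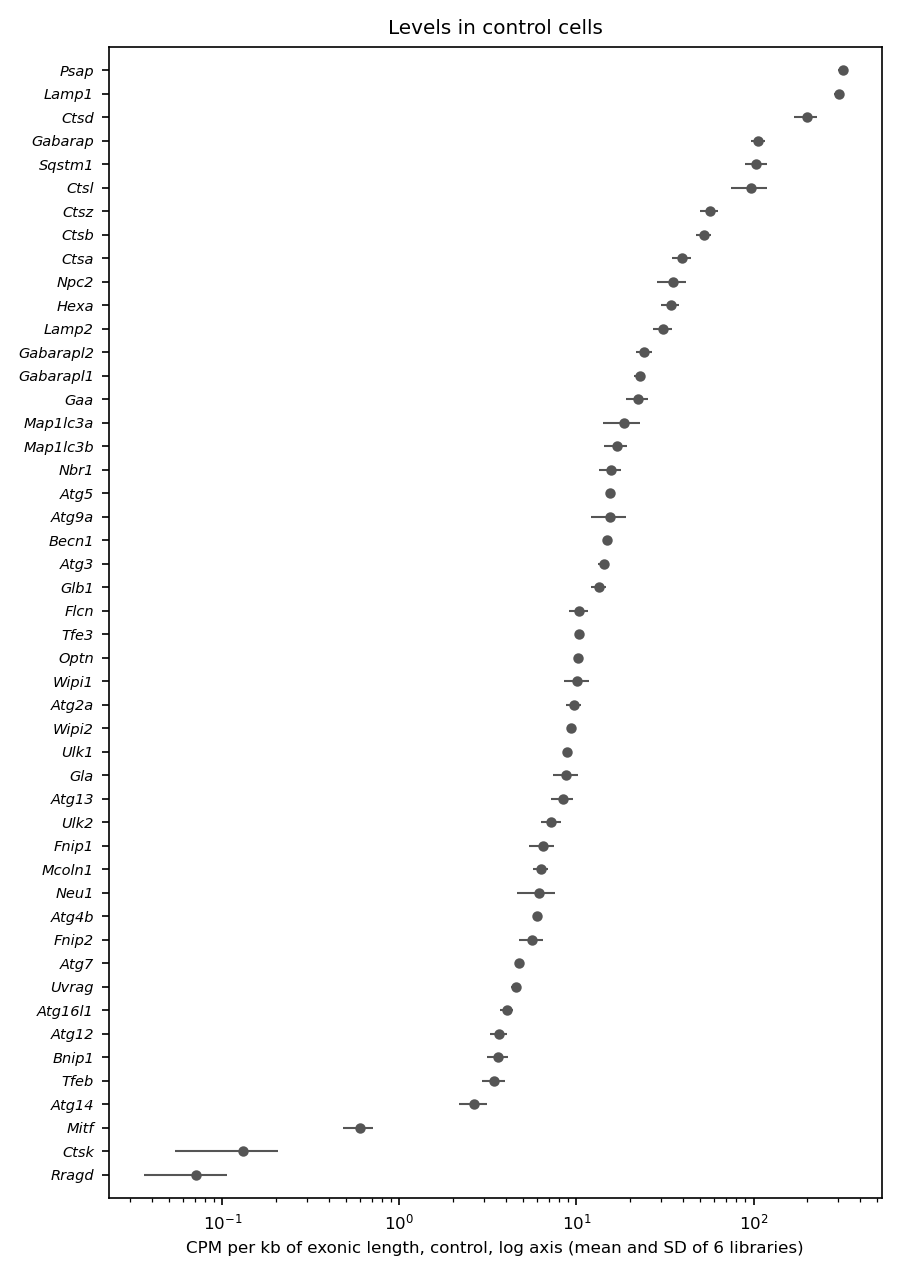
Control CPM per kb of exonic length for the 48 genes (mean and SD of 6 libraries, log x axis), in order of level. Psap and Lamp1 stand at the top, above 300 CPM per kb, and Ctsk and Rragd at the bottom, below 0.2.

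Levels between genes were compared in the control group only per kb of exonic length. Psap (319 CPM per kb) and Lamp1 (303) led, followed by Ctsd (199.2), Gabarap (106.2), Sqstm1 (103.9) and Ctsl (96.5). Ctsb had 52.2 CPM per kb. Ctsk (0.130) and Rragd (0.0712) stood lowest. Within the control group, the median SD of the members on the log2 scale was 0.17, the same as over all genes (0.17), and it was 0.14 with shRNF185.1 and 0.11 with shRNF185.3 (0.16 and 0.13 over all genes).

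The hairpins were compared with each other directly, a contrast that uses no control library. Of the 47 genes, 4 passed (1 higher and 3 lower with shRNF185.3; 8.51%), beside 14.7% of all genes tested (7.72% higher and 6.94% lower). Tfe3 was 1.53-fold higher with shRNF185.3 (log2 difference 0.61, SE 0.05, adjusted p = 6.94e-08), every shRNF185.3 library lay above every shRNF185.1 library, and the differences within batches were 0.61, 0.60 and 0.62. Ulk2 was lower with shRNF185.3 (-0.43, SE 0.08, adjusted p = 0.000797), and -0.48, -0.44 and -0.38 within batches. Both genes passed under all 14 alternatives tried.

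Atg12 (-0.27, SE 0.07, adjusted p = 0.00877) was lower in all 3 batches (-0.31, -0.29 and -0.22) and lost its call without batch 1 (-0.25, adjusted p = 0.159). Mitf (-0.45, SE 0.13, adjusted p = 0.0268) was lower in all 3 batches (-0.46, -0.48 and -0.46), and 5 of the 6 shRNF185.3 libraries lay below every shRNF185.1 library, but it lost its call with a batch covariate (adjusted p = 0.0507) and without batch 1, 2 or 3 (adjusted p = 0.183, 0.124 and 0.0687). With DESeq2 size factors, 5 members passed, 2 higher and 3 lower. With the GC and length offset 7 passed, 2 higher and 5 lower, and the share of all called genes that were higher with shRNF185.3 moved from 52.7% to 42.5%.

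Batch 3 differed from the others in how many members lay above control. For both hairpins together, 23 of the 47 genes were above the control mean of their own batch in batch 1, 19 in batch 2 and 35 in batch 3, with median log2 differences of -0.00, -0.04 and 0.16. Over all genes tested the medians were -0.02, -0.01 and -0.00. The control libraries of each batch are shared by both hairpins, and shRNF185.1 gave 26, 18 and 38 genes and shRNF185.3 25, 21 and 34. Each of these values rests on 2 libraries per group. Of the 13 members called for both hairpins, 12 had the same direction in every batch, Wipi1 being the exception. Those members were called from these same libraries, so this describes them and is not a separate check.

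Further genes of the pathway were read from 5 lists that hold none of the 48. Of 16 genes of the vacuolar proton pump (V-ATPase), which acidifies the lysosome, 4 fell and 0 rose for both hairpins (25%, beside 32.9% of all genes called and 16.8% lower). Their median was -0.08, beside -0.02 over all genes. The larger falls were in Atp6v0b (-0.33, SE 0.06, adjusted p = 0.000482) and Atp6v1c1 (-0.28, adjusted p = 0.00463), the latter lost without batch 1 (-0.28, adjusted p = 0.0653) and without batch 3 (-0.17, adjusted p = 0.103).

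Of 39 tested genes for other lysosomal proteins, 12 rose and 5 fell (43.6%, beside 32.9% of all genes; median 0.04). The protease gene Ctso (0.96, SE 0.15, adjusted p = 6.13e-05) and the phospholipase gene Pla2g15 (0.63, SE 0.05, adjusted p = 2.92e-08) rose most, while the cathepsin genes Ctsh (-1.20, SE 0.15, adjusted p = 5.98e-06) and Ctsc (-0.52, SE 0.09, adjusted p = 0.000136) fell most. Cathepsin genes therefore went both ways, with Ctsb and Ctso up and Ctsh and Ctsc down under each of the 14 alternatives. Ctsc fell by 0.80 with shRNF185.3, and its -0.23 with shRNF185.1 did not pass.

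Nutrient sensing genes at the lysosome, which recruit and regulate the kinase mTORC1, gave 3 higher and 5 lower of 24 (33.3%, median 0.03). Lamtor3 rose (0.82, SE 0.06, adjusted p = 1.99e-08) and Lamtor5, of the same Ragulator complex, fell (-0.32, SE 0.04, adjusted p = 1.8e-06). These share 4.21% and 8.77% of their windows with Gm5900 and Gm15190. Sesn2 rose (0.39, adjusted p = 0.0126), and its value was 0.32 without batch 1 and 0.25 without batch 3, where it did not pass, and 0.60 without batch 2. Rragb fell (-0.39, adjusted p = 0.0487), a call made in 2 of 14 alternatives, with -0.68 without batch 2 and -0.13 without batch 3.

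Other selective autophagy receptors gave 1 higher and 3 lower of 18 (22.2%, median 0.00): Stbd1, a glycogen receptor, rose (0.30, adjusted p = 0.00793) while Retreg1, a receptor for endoplasmic reticulum, fell (-0.49, adjusted p = 0.000234) and Tollip fell (-0.17, adjusted p = 0.00391). Without batch 1, Stbd1 (0.20) and Tollip (-0.16) did not pass. Singly, Stbd1 passed with shRNF185.1 (0.46, adjusted p = 0.00103), while no gene of this list passed as higher with shRNF185.3. Tollip did not pass with shRNF185.1 (-0.11, adjusted p = 0.0801). Other core autophagy genes gave 4 higher and 1 lower of 23 (21.7%, median -0.03), with Epg5 (0.29, adjusted p = 0.000514) and Stx17 (0.18, adjusted p = 0.00964), both needed for fusion with the lysosome, rising, and Wdr45b (-0.12, adjusted p = 0.0057) falling. Stx17 did not pass without batch 1 (0.15) or batch 2 (0.11) and was 0.29 without batch 3. Wdr45b did not pass without batch 3 (-0.08), and neither passed with summed libraries. Over the 5 lists 38 of 120 tested genes passed (20 higher, 18 lower; 31.7%), near the 32.9% of all genes.

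**Figure D5:**
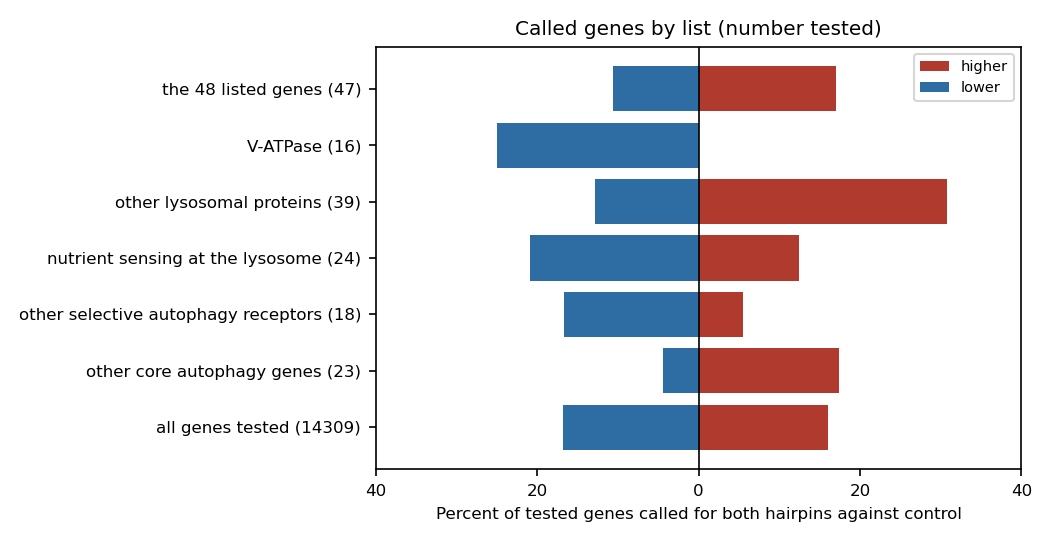
Percent of tested genes called for both hairpins against control (x axis, lower to the left and higher to the right of 0) for each list, with the number tested in brackets and all genes tested for comparison. Both directions together, 27.7% of the members and 32.9% of all genes were called. The 5 lists run from 21.7% (other core autophagy genes) to 43.6% (other lysosomal proteins), and the V-ATPase bar extends to the left of 0 alone.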

How the data were processed

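The authors deposited a table of estimated counts per gene and a table of scaled signal (CPM), both adjusted by ComBat-Seq per the labels. Whether that adjustment was told each library's group, and whether counting used strand, are not given in the sources used here. The submitters' processing notes name cutadapt 2.3, STAR 2.7.0d, RSEM 1.3.1 and the mm10 build, without annotation. Per the labels' protocols, polyadenylated RNA gave directional single-end reads of 75 bases. Of the count values 0.466% were not whole, so the deposited counts, planned for as whole numbers, were rounded. CPM column sums ran from 969986 to 1026394, so this deposited signal is scaled to effective library sizes.

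Counts were tested in R 4.3.3 with edgeR 4.0.16: filterByExpr (minimum count 10), trimmed mean of M values scaling, group means without covariate over all 18 libraries, the quasi-likelihood test and Benjamini-Hochberg adjustment. The procedure was tested on simulated data. Fold changes are edgeR's and levels are deposited CPM. Batch values are differences of mean log2 CPM between the 2 libraries of each group in a batch. Exonic lengths, positions and overlaps are those of GENCODE M21 on GRCm38, the assembly called mm10. Windows of 75 bases found in another gene's transcripts count as shared. Promoter sequences come from RefSeq (GRCm38.p6).

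Alternatives were library size alone, DESeq2 1.42.0 (size factors and test), limma 3.58.1 on log2 of CPM plus 1, no filter, a minimum count of 50, a batch covariate, a replicate block, an offset for GC and length (alone and with the block), each batch left out, and libraries summed by group and batch. Chi-square comparisons of the 45 pairs of libraries within groups gave 7.64 to 84.4 per gene, so none looked like a duplicate. Full values are given for the MiT/TFE factors and for members called for both hairpins whose log2 fold change was 0.5 or more in either direction. The same holds for the 4 members differing most between hairpins among those called in that comparison. From each further list the 2 largest rises and the 2 largest falls among called genes are named. Ulk1, Becn1, Wipi1, Glb1, Psap and Npc2 are given in the same detail after their values were seen. Members and lists were chosen with earlier results of these data known. Counting intervals and floors cover counting error only. Some marker genes are not reported here.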

Additional observations from a re-analysis of the deposited data

Results flagged for a closer look

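In 4 of 144 sets of 6 libraries (48 genes, 3 groups), 1 library stood apart by Dixon's test, where chance gives about 1 in 20, or 7.2. On the log2 CPM scale, Bnip1 in control replicate 4 was 4.53, above the next library at 4.21. Atg12 in shRNF185.3 replicate 4 was 4.18, below the next at 4.38. Ctsz in shRNF185.1 replicate 5 was 6.48, above 6.26, and Gla in shRNF185.1 replicate 2 was 4.42, below 4.64.

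The response differed between the hairpins by edgeR's test of the difference itself for 7 named genes. As log2 differences of shRNF185.3 from shRNF185.1 these were Tfe3 (0.61), Mitf (-0.45), Ulk2 (-0.43), Atg12 (-0.27), Ctsc (-0.57), Stbd1 (-0.31) and Lamtor5 (-0.13). The Lamtor5 call was lost in 7 of 14 alternatives and the Stbd1 call in 5, both with a batch covariate (adjusted p = 0.0778 and 0.055), with the replicate block (adjusted p = 0.0594 and 0.0516) and without batch 1, 2 or 3. Mitf lost its call in 4 alternatives and Atg12 in 1.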

How the results depend on the processing

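No value changed direction past the test's threshold. Of the values for single genes under the alternatives, 3375 stayed on the same side of the threshold, 112 lost their call and 92 gained one. Ctsb, Gabarapl1, Glb1, Psap, Npc2, Tfe3, Becn1 and Atg12 were called for both hairpins in all 14 alternatives. Leaving out batch 1 lowered the genes called among all tested to 2207 (shRNF185.1), 2120 (shRNF185.3), 2672 (both hairpins) and 753 (between hairpins), and the members called to 6 for shRNF185.1 and 2 between hairpins. Without batch 2, 1208 genes differed between the hairpins, and without batch 3 the counts were 2501 for shRNF185.3 and 3106 for both hairpins. These fits hold fewer libraries, but the fit without batch 2 did not call fewer genes in every comparison. It called 5119 genes for shRNF185.1 (4141 in the main fit) and 5411 for both hairpins (4701 in the main fit). For shRNF185.3 it called 3849, beside 3906 in the main fit. With a batch covariate, 4031 of all genes (28.2%) and 13 members (27.7%) were called for both hairpins. The main fit gave 4701 (32.9%) and 13 (27.7%). Between the hairpins, 7 members were called with the DESeq2 test, 7 with the GC and length offset, 8 with the replicate block and that offset, and 7 with summed libraries; the cause was not tested. With the replicate number as a block, 11, 11, 15 and 6 members were called (shRNF185.1, shRNF185.3, both hairpins, between hairpins), or 23.4%, 23.4%, 31.9% and 12.8%, beside 26.6%, 25%, 30.1% and 13.8% of all genes. Fnip1 then passed with shRNF185.1 (-0.26, adjusted p = 0.00458) and between the hairpins (0.33, adjusted p = 0.00189). The labels do not say whether the numbers pair libraries across groups. Over 9891 genes, deviations from group means in same-numbered libraries of different groups had correlations averaging -0.01 (18 pairs, 5 over 0.1). In libraries of different groups with the same batch and another number they averaged -0.44 (18 pairs, 1 over 0.1). Across groups and batches they averaged 0.11 (72 pairs, 34 over 0.1). For 2 libraries the highest correlation with another group was with their own number. The depth leaves Ctsk and Rragd near the value of 3 counts.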

Other observations

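Within each group and batch the labels give 1 odd and 1 even replicate number, 9 such pairs in all. For 6 of the 47 tested members (12.8%) the odd-numbered library was higher in all 9 pairs: Neu1 (mean log2 difference 0.51), Fnip1 (0.33), Sqstm1 (0.33), Fnip2 (0.31), Lamp2 (0.21) and Nbr1 (0.15). Over all genes tested the share was 5.36%, and 5.06% were higher in every even-numbered library, as were 0 of the members. The labels do not say what odd and even numbers stand for. None of these 6 genes was called for both hairpins against control in the main test.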
